A study of Drosophila melanogaster with 72 samples.

Results

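Odorant-binding protein genes (Obp genes) were followed across whole Drosophila melanogaster males that differed in their mitochondria and their Y chromosome. The genes were taken as the rows of the count table whose FlyBase symbol begins with Obp and a digit. This gave 51 of 17324 features, of which 33 were kept because they had at least 10 counts in 12 or more of 72 libraries. The related gene lush carries another kind of symbol and was not a member. The annotation placed 29 of the 51 genes on chromosome arm 2R, 12 on 3R, 6 on X, 2 on 2L and 2 on 3L, so 0 of them lie on the Y chromosome or in the mitochondrial genome.

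The males carried 1 of 6 mitochondrial haplogroups (Beijing lines B38 and B39, the Ithaca line I02, and the Dutch lines N01, N02 and N23) and 1 of 6 Y haplotypes (Beijing lines B04 and B11, Dutch lines N03 and N07, and Zimbabwe lines ZH23 and ZW139). Females of mitochondrial replacement lines were mated with males of Y replacement lines, and the submitters state that both sets of lines have the nuclear background 4361. The study asked how the 2 uniparentally inherited genomes act alone and together on gene expression. For each of 36 combinations 2 libraries were made, with 10 males aged 3 to 5 days from a separate cross in each, so that a haplotype was represented by 12 libraries. Sons receive the X chromosome with the mitochondria from the mother, and an effect of the haplogroup on the 5 kept X-linked genes (Obp8a, Obp18a, Obp19a, Obp19b and Obp19d) therefore cannot be told apart from one of the maternal X. Second replicates of N01, N02 and N23 were labelled batch 2 (18 libraries) and the rest batch 1 (54 libraries). Each haplotype was represented by a single line, so an effect of a haplotype cannot be told apart from one of its line, for autosomal genes as well.

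Odorant-binding proteins are small, secreted, soluble proteins that bind hydrophobic ligands. In insects they are best known from the fluid that bathes the dendrites of olfactory and taste neurons, where they are made by support cells in large amounts, and they can carry odorants, buffer their concentration or serve other roles. Many members of the family are made elsewhere, including the male reproductive tract, from which several pass to the female in the ejaculate, and the fat body and glia. In RNA of whole males all these sources are mixed, and a change in the number of cells that make a transcript cannot be told apart from a change in the transcript per cell.

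The 17324 features received 2454024 to 7671784 counts per library with a median of 4792638, and the Obp genes held 0.943% of all counts. The share of reads aligned to several places (multi-mapped reads) was 9.68% to 35.5% with a median of 12.3%, and it exceeded 20% in 6 libraries, of which 4 were first replicates of B38. Replicate libraries of a combination differed by 10.8 to 106 times the sampling noise (chi-square per degree of freedom), and no pair of libraries was identical. Values are CPM, read counts scaled to a common library size, after TMM normalisation. Libraries were made with a 3' tag kit, in which a transcript gives reads from its end only, so CPM can be set side by side between genes without a correction for length.

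Levels of the 33 kept genes ranged from 1.23 to 3660 CPM on average, and a few genes made up most of the signal. The 3 highest held 70.98% and the 8 highest 90.9% of the summed mean level, while 11 genes were above 100 CPM, 13 between 10 and 100 CPM and 9 below 10 CPM. Of the 33 genes, 32 were detected in all 72 libraries and Obp83g in 71. Of the 33 genes, 9 overlap a gene on the other strand, among them Obp99c, Obp51a, Obp44a and Obp59a, and no source used here gives the strand setting of the counting. The summed level per library ranged from 6632 to 19236 CPM with a median of 9157 CPM.

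**Figure D1:**
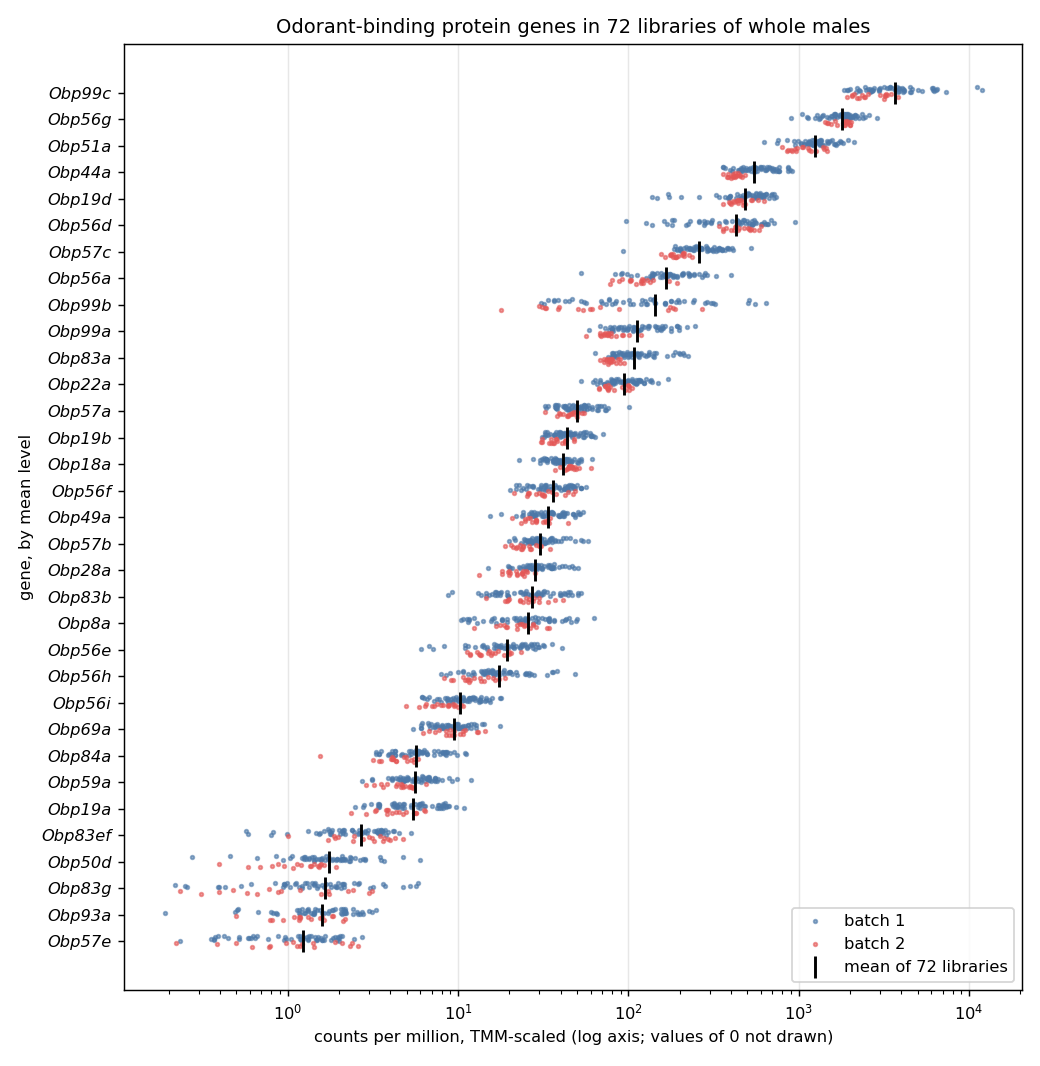
Each point is the level of a gene in 1 library, in CPM on a log axis, with batch 1 in blue and batch 2 in red and the mean of 72 libraries as a black bar. Obp99c, Obp56g and Obp51a stand highest, with means of 3660, 1804 and 1245 CPM, and Obp99b spreads over the widest range among the genes above 100 CPM.

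Obp99c, a gene transcribed broadly in the body, was the most abundant member and rank 22 among all features. Its level was 1851 CPM in the lowest library, 3209 CPM at the median and 11848 CPM in the highest (3660 ± 1839 CPM, SD, n = 72). The 2 highest libraries stood far above the third (7309 CPM). They were the first replicates of N23 with Y B04 (11848 CPM) and of I02 with Y ZH23 (11095 CPM), in which 20.2% and 19.9% of reads aligned to several places. The next broadly expressed gene was Obp44a, known from glia, with 549 CPM on average. Obp99b, which is expressed in the male fat body of the head, ranged from 17.97 to 646 CPM (143 ± 128 CPM, SD, n = 72).

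Genes whose products are known from seminal fluid were the second large group. Obp56g, which is needed in the male for the mating plug, had 1804 ± 355 CPM (SD, n = 72) and ranged from 905 to 2866 CPM. Obp51a, a seminal fluid protein, had 1245 ± 289 CPM with a range of 626 to 2106 CPM. The other 5 genes of this group were lower, with 93.9 CPM for Obp22a, 36.3 CPM for Obp56f, 25.7 CPM for Obp8a, 19.4 CPM for Obp56e and 10.3 CPM for Obp56i. The 7 genes together summed to 3234 ± 565 CPM over 72 libraries.

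Genes known from the antenna were led by Obp19d (487 CPM) and Obp56d (426 CPM), followed by Obp99a (112 CPM) and Obp83a (108 CPM). Obp18a had 41.2 CPM, Obp28a 28.3 CPM, Obp83b 27.1 CPM and Obp69a 9.44 CPM. The lowest of this group were Obp84a (5.69 CPM), Obp59a (5.56 CPM), which is required for humidity sensing, and Obp19a (5.41 CPM). All 11 antennal genes together summed to 1256 ± 223 CPM.

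Genes known from taste organs included the neighbours Obp57c (260 CPM), Obp57a (49.98 CPM) and Obp57b (30.4 CPM) on 2R, and Obp56a (165 CPM). Obp19b had 43.7 CPM and Obp49a, which in taste sensilla acts in the suppression of sweet responses by bitter compounds, had 33.8 CPM. Obp56h had 17.4 CPM, and Obp57e, known for its part in host plant preference in Drosophila sechellia, had 1.23 CPM. The remaining low genes were Obp83ef (2.68 CPM), Obp50d (1.75 CPM), Obp83g (1.66 CPM) and Obp93a (1.59 CPM), and counts of Obp83g in single libraries were 0 to 29.

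The 18 genes that were not kept had mean levels of at most 1.02 CPM. Obp50b, Obp50c and Obp57d had 0 counts in all libraries. Over the 347393094 counts of the series this would allow at most 0.00864 CPM, but the limit holds for reads that could be assigned to 1 gene. Obp50b and Obp50c occupy the same annotated interval and Obp57d overlaps Cpr57A on the same strand, so that reads there could have been left out as ambiguous. Obp47a, Obp47b, Obp56b and Obp73a had 2 to 9 counts in all, and Obp46a, Obp50a, Obp50e, Obp56c, Obp58b, Obp58c, Obp58d, Obp83cd, Obp85a, Obp99d and Obp19c had 13 to 359. Of the 13 genes of the Plus-C subfamily, which have additional conserved cysteines, only Obp49a, Obp50d and Obp93a were kept. Obp50a (6 libraries with at least 10 counts) and Obp99d (9 libraries) lay just outside the limit of 12 libraries, and Obp57e (12 libraries) and Obp83g (20 libraries) just inside it.

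Differences between the Y haplotypes were examined first, with 12 libraries per Y haplotype averaged over the 6 haplogroups. Obp99b and Obp83g differed between Y haplotypes and were higher with the Y from line B11 than with the other Y chromosomes, by 1.16 and 1.11 on the log2 scale. The abundant genes Obp99c, Obp56g and Obp51a did not pass the test. In edgeR's quasi-likelihood F test, adjusted by Benjamini and Hochberg over 12470 genes, 2 of 33 members (6.06%) were called at an adjusted p under 0.05, beside 4.15% of all genes. At an unadjusted p under 0.05 the counts were 17 of 33 members (51.5%) and 19.9% of all genes, and 15 of those 17 members had adjusted p-values of 0.0830 to 0.238.

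Obp99b (FBgn0039685, chromosome arm 3R, 29716254 to 29716896, minus strand, BDGP6.54) had 68.8 CPM in the lowest B11 library, 192 CPM at the median and 646 CPM in the highest. With the Y from ZH23 the corresponding values were 17.97, 177 and 553 CPM, and with B04 they were 32.9, 103 and 501 CPM. With N07 they were 30.7, 57.4 and 212 CPM, with ZW139 33.9, 66.5 and 183 CPM, and with N03 29.9, 62.1 and 140 CPM. The libraries with B11 and ZH23 were thus mostly high and those with N03, ZW139 and N07 mostly low, but the groups overlapped, with 10 of 12 B11 libraries above the median of the other 60. The F test over Y haplotypes gave an adjusted p of 0.00132, and B11 was higher than the mean of the other 5 by 1.16 ± 0.26 (log2, SE, adjusted p = 0.00572), in 5 of 6 haplogroups. The same contrast for ZH23 was 0.88 ± 0.26 (adjusted p = 0.0959), with a higher mean in 6 of 6 haplogroups, and that for N03 was -0.99 ± 0.30 (adjusted p = 0.184), with a higher mean in 0 of 6.

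Obp83g (FBgn0046875, 3R, 6111671 to 6112302, minus strand) is a low gene beside Obp83ef. Its level with the Y from B11 was 1.22 CPM in the lowest library, 2.52 CPM at the median and 5.82 CPM in the highest, against 1.23 CPM at the median of the other 60 libraries, which ranged from 0 to 5.65 CPM. The value of 0 came from the second replicate of N02 with Y N03, where a count of 0 allows up to 0.626 CPM. Mean levels were 1.88 CPM with ZW139, 1.64 CPM with ZH23, 1.59 CPM with B04, 1.14 CPM with N07 and 0.876 CPM with N03. Most B11 libraries were high, 11 of 12 above the median of the others, though the ranges overlapped. The F test gave an adjusted p of 0.0121, and B11 exceeded the other 5 by 1.11 ± 0.24 (log2, SE, adjusted p = 0.00504).

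Among the 33 members these 2 were the calls for B11, all higher (6.06% of members, beside 2.46% of all genes called, 1.95% higher and 0.513% lower), and 0 members were called for the other 5 Y haplotypes. Single-haplotype backgrounds were 0.0561% of genes for B04, 0.152% for N03, 0.016% for N07, 1.36% for ZH23 and 0.168% for ZW139, in the same test. Unadjusted p-values under 0.05 were found for 8 members with B04 (beside 21.2% of all genes), 6 with N03 (9.98%), 3 with N07 (3.72%), 2 with ZH23 (10.4%) and 8 with ZW139 (16.8%). For B11, 24 of 33 members had a log2 fold change above 0 and the median was 0.17, beside -0.01 for all genes. By group, the medians for B11 were 0.23 for the 7 seminal genes, 0.20 for the 8 tested taste genes, 0.04 for the 11 antennal genes and 0.35 for Obp44a, Obp99b and Obp99c. Obp99c had a mean of 4307 CPM with B11 and 2895 CPM with ZW139, and its B11 contrast was 0.35 ± 0.16 (log2, SE, adjusted p = 0.337).

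**Figure D2:**
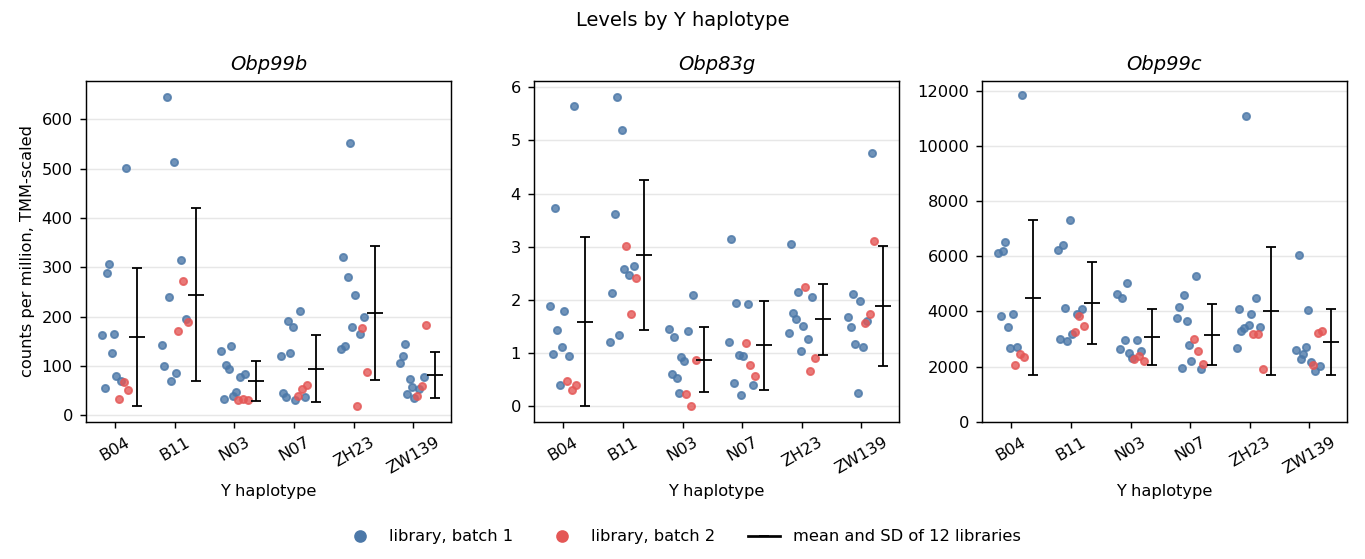
Points are single libraries by Y haplotype in CPM, with batch 1 in blue and batch 2 in red, and black marks show the mean and SD of 12 libraries. Obp99b has its highest mean with B11 (245 CPM) and ZH23 (208 CPM), and Obp83g with B11 (2.85 CPM). Obp99c, which was not called, has it with B04 (4505 CPM), where the first replicate of N23 reaches 11848 CPM. In batch 2 the mean of Obp99c is 2286 CPM with B04 and 3513 CPM with B11.

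Both calls were lost in batch 1 alone, where fewer libraries entered. Within batch 1 the B11 contrast was 0.95 for Obp99b (adjusted p = 0.355) and 0.97 for Obp83g (adjusted p = 0.315), and 0.321% of all genes were called. In batch 2, with 3 libraries per Y haplotype, Obp99b had 210 ± 54.1 CPM with B11 and 31.1 to 93.8 CPM on average with the other Y chromosomes, and Obp83g had 2.39 ± 0.642 CPM and 0.368 to 2.14 CPM. Leaving out the second replicate of I02 with Y B11 ended the B11 call of Obp99b (0.83, adjusted p = 0.161) and both calls of Obp83g (0.92, adjusted p = 0.109, and 0.0628 in the F test). Leaving out the second replicate of B38 with B11 ended the B11 call of Obp83g (1.03, adjusted p = 0.0549).

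Marker genes of other tissues were examined beside these results. In the B11 contrast 12 of 14 eye genes rose and 0 fell, with a median of 0.69, and their summed level was 3790 ± 1039 CPM with B11, 3405 ± 1036 CPM with ZH23 and 1933 to 2806 CPM on average with the other Y haplotypes. Of 10 tested fat body genes 1, Lsp1beta, rose (1.73 ± 0.34), and the summed fat body level was 3244 ± 803 CPM with B11, 3228 ± 619 CPM with ZH23 and 2229 to 2538 CPM with the others. In the ZH23 contrast 1 of 14 eye genes and 2 of 10 fat body genes rose. Of 6 tested genes of the ejaculatory duct and bulb 2 rose with B11, Dup99B (4.41 ± 0.56) and CG17242 (0.59 ± 0.10), and 2 rose with ZH23, and their summed level was 15637 ± 5228 CPM with B11, 15552 ± 3052 CPM with ZH23 and 9775 to 11914 CPM on average with the others. Of 14 tested genes in a mixed list of chemosensory (smell and taste) genes outside the family, 0 were called for B11 and the median was -0.04. The list includes Orco, lush, CheA and CheB genes and EbpIII, which is also in the ejaculatory list. The part of these tissues in the Obp99b and Obp83g results was not tested.

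Mitochondrial haplogroups were compared next, and no member passed the test over all 6 of them. In the F test over haplogroups 0 of 33 members were called, beside 2.04% of all genes, and 7 members (21.2%) had an unadjusted p under 0.05, beside 15.9%. The lowest adjusted p was 0.0542, for Obp19b. By limma-voom 0 members were called (12 unadjusted) and by DESeq2 2, Obp19b and Obp51a (8 unadjusted). Of all genes 1.52% were called by limma-voom and 5.23% by DESeq2.

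When single haplogroups were set against the mean of the other 5, B38 was the haplogroup with called members. Obp19b, Obp19d, Obp28a and Obp51a were lower and Obp59a was higher with B38 mitochondria, which is 5 of 33 members (15.2%) beside 9.73% of all genes (lower in 12.1% of members and 2.88% of genes, higher in 3.03% and 6.85%). The other 5 haplogroups gave 0 calls among the members, and an unadjusted p under 0.05 was found for 3 members with B39 (beside 5.34% of all genes), 1 with I02 (11%), 2 with N01 (6.98%), 3 with N02 (3.04%) and 1 with N23 (4.83%). The shares of genes called were 0.0642% of genes for B39, 0.401% for I02, 0.0401% for N01, 0.0241% for N02 and 0.144% for N23. Over all 12 single-haplotype contrasts, 7 of 396 member tests (1.77%) were called, beside 1.22% for all genes.

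Obp19b, a taste organ gene on the X chromosome (20416733 to 20417812), had 31.1, 37.3 and 48.5 CPM in the lowest, median and highest of 12 B38 libraries. In the other 60 libraries the values were 30.8, 42.5 and 71.2 CPM. Most B38 libraries were low, 10 of 12 below the median of the rest, with overlapping ranges, and the fold change was -0.34 ± 0.08 (log2, SE, adjusted p = 0.00498), with a lower mean in 5 of 6 Y haplotypes. The call was kept when any 1 library was left out (highest adjusted p 0.0208) and in batch 1 alone (adjusted p = 0.0283), and it ended without a batch term (-0.23, adjusted p = 0.116).

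Obp51a, the seminal fluid gene, had 626, 1107 and 1482 CPM with B38 and 800, 1274 and 2106 CPM otherwise. Its B38 libraries were low in 10 of 12 cases, and the fold change was -0.37 ± 0.10 (adjusted p = 0.0118). Obp19d, an abundant antennal gene on X, had 138, 392 and 640 CPM with B38 and 146, 504 and 732 CPM otherwise (-0.55 ± 0.17, adjusted p = 0.0325). Its B38 libraries formed a low cluster of 4 and a group of 8 within the range of the others. Obp28a, an antennal gene on 2L, had 19.7, 25.3 and 35.2 CPM with B38 and 13.3, 27.9 and 50.7 CPM otherwise (-0.33 ± 0.10, adjusted p = 0.0260). Obp59a, the humidity-sensing gene, had 4.103, 7.13 and 11.9 CPM with B38 and 2.73, 5.06 and 9.80 CPM otherwise. It was the 1 member that rose, by 0.38 ± 0.11 (adjusted p = 0.0288), with 9 of 12 B38 libraries above the median of the rest.

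The 4 B38 libraries in which multi-mapped reads exceeded 20% stood apart for several of these genes. In them Obp19d was 138 to 204 CPM, below the 329 to 640 CPM of the other 8 B38 libraries, and Obp51a was 626 to 939 CPM, below 951 to 1482 CPM. Obp56g, which was not called, was 905 to 1240 CPM in the 4 and 1276 to 2342 CPM in the 8. Obp19b was 31.1 to 47.5 CPM in the 4 and 31.9 to 48.5 CPM in the 8, so that these libraries were not low for it. Without the 4, Obp19b was the 1 member still called (-0.40, adjusted p = 0.0381). Obp51a then changed by -0.20 (adjusted p = 0.432), Obp19d by -0.20 (0.672), Obp28a by -0.32 (0.257) and Obp59a by 0.32 (0.339).

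Calls in the B38 contrast also rested on single libraries. That of Obp51a ended without the first replicate of B38 with Y B04 (adjusted p = 0.0682), with B11 (0.0938) or with N03 (0.0554). Those of Obp28a, Obp59a and Obp19d ended when any 1 of 5, 7 and 7 B38 libraries was left out, with highest adjusted p-values of 0.134, 0.176 and 0.170. Of the accessory gland genes 9 of 20 fell in the B38 contrast and 0 rose, with a median of -0.26. Their summed level was 21099 ± 3022 CPM with B38 and 22619 to 25650 CPM on average with the other haplogroups. Of the 14 tested chemosensory genes outside the family 2 fell, CheB38b (-0.77 ± 0.14) and CheA75a (-0.80 ± 0.21), and 1 rose, Snmp2 (0.65 ± 0.18). These counts were made with the 4 B38 libraries above 20% multi-mapped reads included. Without all 6 such libraries 0.449% of all genes were called for B38, beside 9.73% with them. The part of these tissues in the results was not tested.

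**Figure D3:**
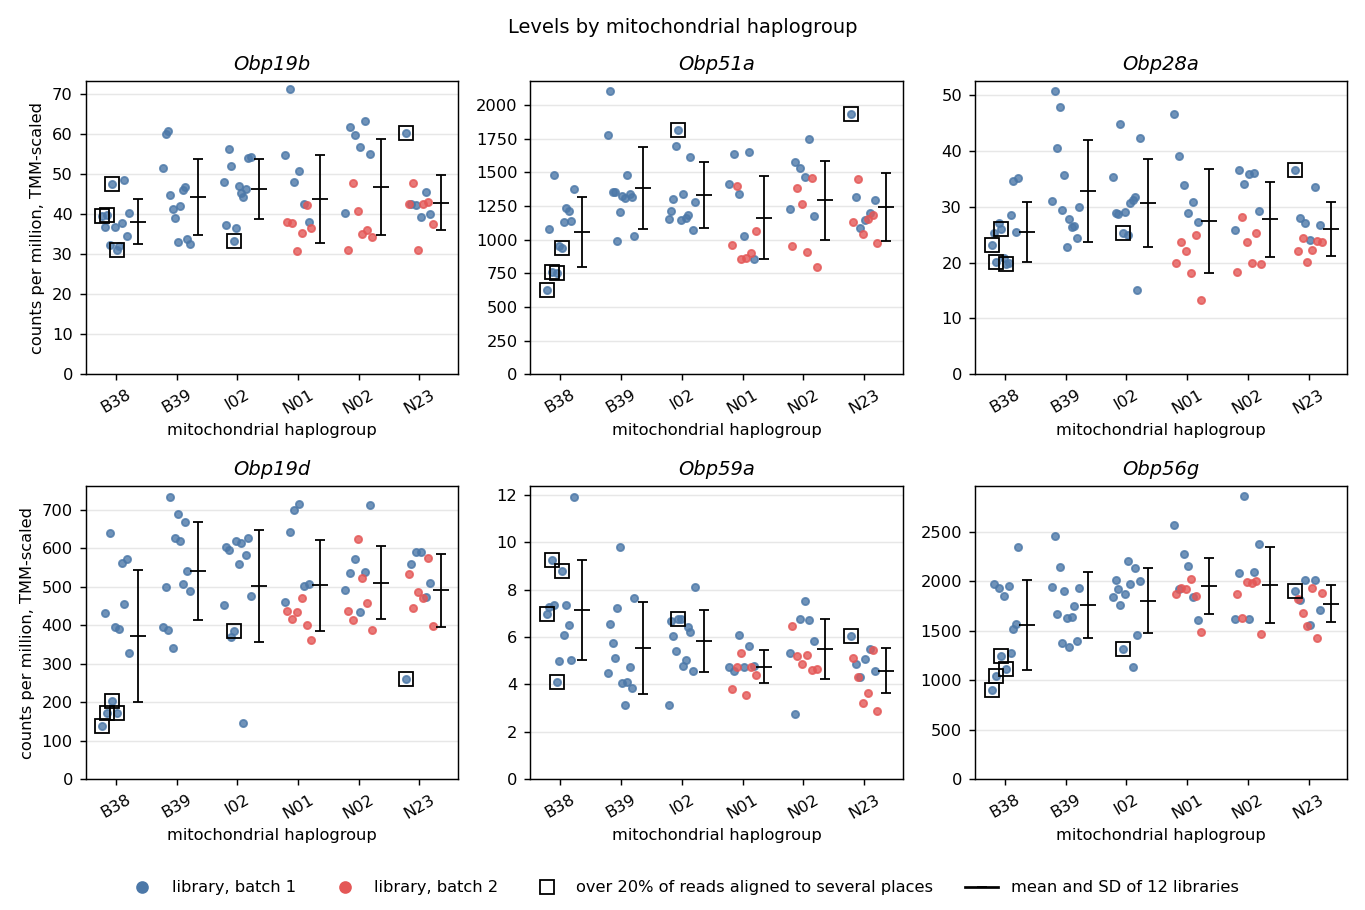
Points are single libraries by mitochondrial haplogroup in CPM, with batch in color, squares around libraries in which multi-mapped reads exceeded 20%, and the mean and SD of 12 libraries in black. The 4 squared B38 libraries are the lowest B38 values of Obp19d, Obp51a and Obp56g and lie among the other B38 libraries for Obp19b.

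The combination of both genomes, the epistasis named in the title of the series, gave 0 calls among the members. In edgeR's test of the interaction 0 of 33 members and 0.0% of all genes were called, and 1 member, Obp22a, had an unadjusted p under 0.05, beside 1.92% of all genes. DESeq2 and limma-voom also called 0 members, with 2 unadjusted each (Obp22a and Obp83b, and Obp22a and Obp83ef). In shares of the variance of log2 CPM, the median member had 12.8% for the Y haplotype, 8.15% for the haplogroup, 23.9% for the interaction, 8.59% for batch and 38.9% between replicates. The median of all tested genes had 8.99%, 7.38%, 25.2%, 6.13% and 45.0%. By degrees of freedom alone 7.04% would fall to the Y haplotype and 35.2% to the interaction. Batch was split off first, and the haplogroup share was taken from what then remained. Since batch 2 held only N01, N02 and N23, the batch share can include part of a haplogroup difference. The Y haplotypes were spread evenly over both batches, so Y and haplogroup shares cannot be compared directly. Obp99b (30.1%) and Obp83g (29.6%) had the highest shares for the Y haplotype. After batch, Obp19d (21.8%), Obp19b (20.7%) and Obp8a (20.3%) had the highest for the haplogroup, followed by the autosomal Obp56g (19.9%) and Obp51a (18.9%). Of the 5 kept X-linked genes the other 2 were lower, with 7.41% for Obp18a and 4.69% for Obp19a.

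The batch had the most calls among the members, and in the main fit they went in a single direction. Of 33 members 13 (39.4%) were lower in batch 2 and 0 higher, beside 29.3% of all genes called, 14.6% lower and 14.7% higher, and the median over the members was -0.34 on the log2 scale, beside -0.02 for all genes. The calls took in 4 taste genes, 5 antennal genes, 3 seminal genes and Obp44a. By group, 4 of 8 taste genes fell with a group median of -0.38, 5 of 11 antennal genes with -0.23, 3 of 7 seminal genes with -0.27 and 1 of 3 broadly expressed genes with -0.42.

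Since batch 2 holds second replicates of N01, N02 and N23 only, each of those 18 libraries has a partner of the same genotype in batch 1. Obp57c, the highest of the Obp57 genes, was lower in the batch 2 partner in 18 of 18 pairs, with 306 ± 84.7 CPM in the first replicates and 194 ± 21.7 CPM in the second (fitted change -0.61 ± 0.11, SE, adjusted p = 8.12e-05). Obp28a was also lower in 18 of 18 pairs (32.2 ± 5.74 and 21.9 ± 3.42 CPM, fitted change -0.56 ± 0.10). In the 18 pairs of B38, B39 and I02, in which both replicates were in batch 1, the second replicate was lower in 11 pairs for Obp57c and in 2 pairs for Obp28a.

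The other called genes fell by less, and each was lower in batch 2 in 13 to 17 of 18 pairs. For some, the second replicate was lower nearly as often in the 18 pairs of B38, B39 and I02, all in batch 1. There it was lower in 13 pairs for Obp19a and Obp56i, 14 for Obp57a and 11 for Obp84a, and in 6 to 9 for the rest. Fitted changes were -0.51 ± 0.11 for Obp56i, -0.51 ± 0.13 for Obp99a, -0.45 ± 0.15 for Obp84a, -0.44 ± 0.16 for Obp19a and -0.42 for Obp57b and Obp44a. They were -0.39 for Obp19b and Obp83a, -0.35 for Obp57a, -0.32 for Obp51a and -0.27 for Obp22a, with adjusted p-values of 0.000148 to 0.0339 over these 11 genes. With the replicate number as a block the calls of Obp99a (adjusted p = 0.0822), Obp57a (0.521), Obp84a (0.3597) and Obp19a (0.327) ended, and 7 other members were called. Of these, Obp18a was higher in the batch 2 partner on average (0.12, log2, lower in 6 of 18 pairs). Its second replicates within batch 1 were lower (-0.25). The others, Obp19d, Obp56e, Obp56f, Obp56g, Obp59a and Obp8a, were lower in the batch 2 partner on average. The call of Obp19a ended when any 1 of 18 libraries was left out, with adjusted p-values up to 0.0840. That of Obp84a ended without the second replicate of N02 with Y B04 or the first with ZH23 (up to 0.0613), and that of Obp83a without the first replicate of N02 with N07 or the second of N23 with B04 (up to 0.0530). Of the other tissue lists, 9 of 20 accessory gland genes, 6 of 17 midgut genes, 4 of 14 eye genes and 4 of 14 chemosensory genes fell. So did 2 of 12 testis genes, 1 of 6 ejaculatory duct and bulb genes and 2 of 6 female reproductive genes. Rises were called for 1 accessory gland gene, 1 testis gene, 2 of 10 fat body genes and 2 chemosensory genes, among them Snmp2 (1.02 ± 0.19, adjusted p = 7.5e-05 in edgeR's test). The part of these tissues in the Obp changes was not tested.

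**Figure D4:**
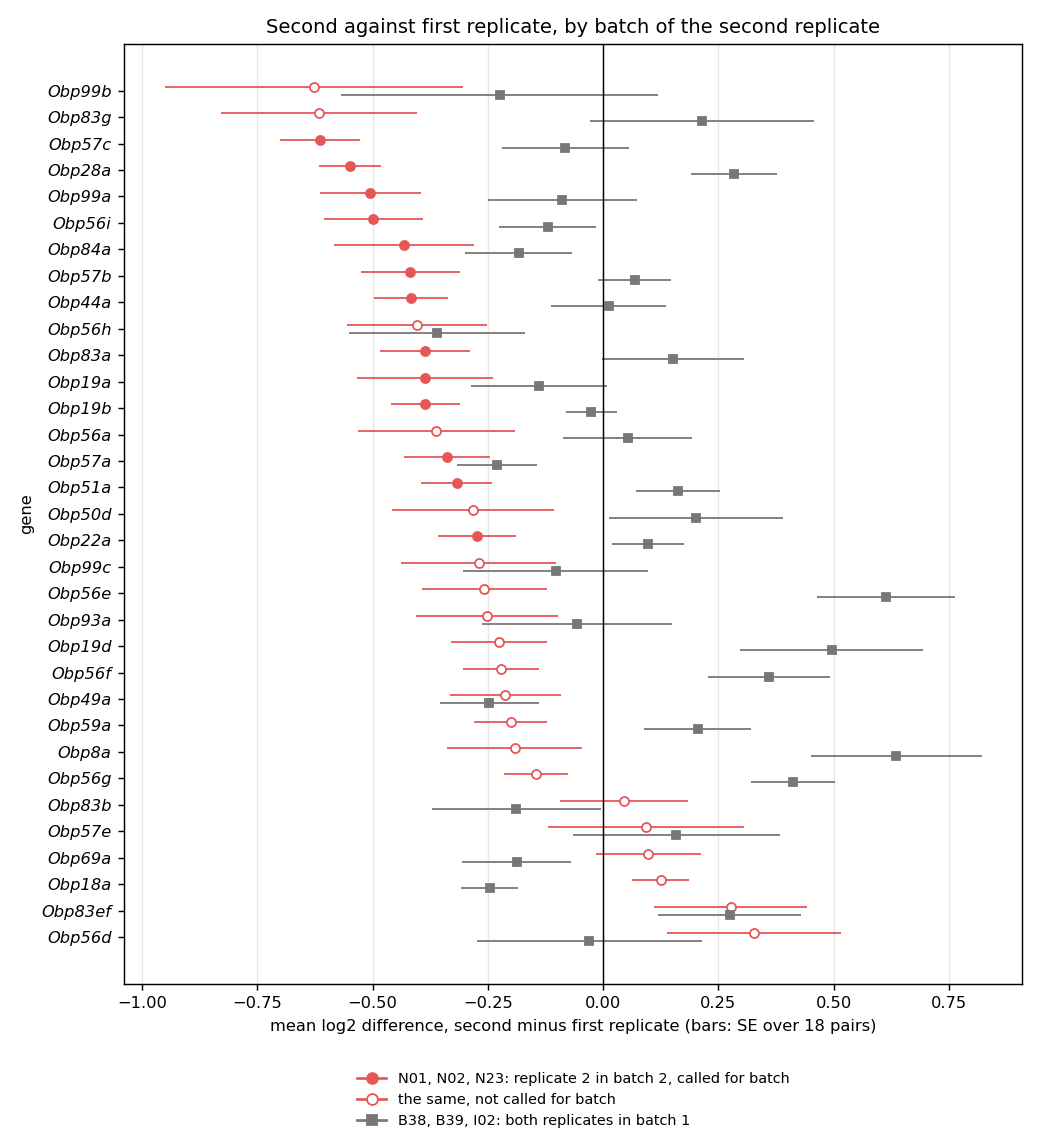
For each gene the mean log2 difference between the second and first replicate of a combination is shown with its SE over 18 pairs, in red for N01, N02 and N23, whose second replicates were in batch 2, and in gray for B38, B39 and I02, with both in batch 1. Filled red circles mark the 13 genes called for batch, all of them below 0.

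Many Obp genes lie beside each other, and neighbours were compared across the 72 libraries. The pairs, called neighbouring here, were the 16 pairs of kept members that share the number in their symbol and follow each other by letter. Letters do not always follow position: Obp99c lies between Obp99a and Obp99b, and Obp57a and Obp57b lie between Obp57c and Obp57e. Of these, 10 were correlated in log2 CPM at an adjusted p under 0.05 (Pearson, two-sided permutation test of 100000 resamples, Benjamini-Hochberg over 16 pairs), 9 of them positively and 1 negatively. The lowest absolute r among these 10 was 0.27, which 62.5% of the 16 neighbouring pairs reached, as did 238 of the 512 other pairs of kept members (46.5%) and 46.3% of those on different chromosome arms, so that correlation was common among members in general. The difference between these shares was not tested. All values of a library share its depth and scaling, and libraries share batches and haplotypes. In residuals after removing haplogroup, Y haplotype and batch 9 pairs were called, in batch 1 alone 9 and in the 18 libraries of batch 2 alone 1.

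Among the Obp99 genes on 3R both pairs taken by letter were positively correlated. Obp99b and Obp99c, whose annotated intervals are 26943 bases apart, had a Pearson r of 0.73 and a Spearman rho of 0.72 (adjusted p = 4e-05 and 5.33e-05, from the smallest p that 100000 resamples can give). For Obp99a and Obp99b, 43920 bases apart with Obp99c between them, r was 0.68 and rho 0.66. Obp99a and Obp99c, adjacent by position among the kept members but not a pair by letter, had r = 0.81. The 2 relations by letter were found in batch 1 (r = 0.74 and 0.68). In batch 2 they were 0.58 and 0.48, with adjusted p-values of 0.0697 and 0.142. Values as high were found with genes elsewhere: r was 0.89 for Obp99a with Obp44a on 2R, 0.78 for Obp99a with Obp57c and 0.77 for Obp99c with Obp44a.

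Of the Obp57 taste genes on 2R, Obp57b and Obp57c, only 49 bases apart, had r = 0.68 and rho = 0.73 (adjusted p = 4e-05 for r). This was the pair called in batch 2 alone (r = 0.79, adjusted p = 0.00176). Obp57a and Obp57b are 14 bases apart, and their r was 0.04 (adjusted p = 0.713), -0.12 in batch 1 and 0.59 in batch 2 (adjusted p = 0.0697). Reads from the end of 1 transcript that run into the next gene could not be separated from its own reads in these counts.

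Obp83a and Obp83b, 932 bases apart on 3R, encode closely related proteins that are made together in the same kind of olfactory sensilla of the antenna, and their levels went in opposite directions. Their r was -0.54 and rho -0.45 (adjusted p = 4e-05 and 0.000373). In batch 1 r was -0.68, in the residuals -0.66 and without the 6 libraries above 20% multi-mapped reads -0.51, each called. In batch 2, where Obp83a varied little (79.6 ± 6.90 CPM), r was 0.17 (adjusted p = 0.637). Obp83b and Obp83ef, 132825 bases apart, had r = 0.42 (adjusted p = 0.00048), and Obp83ef and Obp83g, 637 bases apart, -0.24 (adjusted p = 0.0559).

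The other called pairs had lower values. The X-linked Obp19a and Obp19b had r = 0.47 (adjusted p = 9.6e-05), while Obp19b and Obp19d had 0.13 (adjusted p = 0.364). In the Obp56 cluster on 2R, r was 0.40 for Obp56e with Obp56f, 0.36 for Obp56f with Obp56g and for Obp56d with Obp56e, and 0.27 for Obp56h with Obp56i (adjusted p-values of 0.00119 to 0.0325). In batch 2 alone r was -0.43 for Obp56e with Obp56f and -0.26 for Obp56h with Obp56i, opposite in sign, and 0.26 and 0.12 for the other 2 pairs, none of them called. Without the 2 libraries farthest from the median of the first gene, the relations of Obp56d with Obp56e (0.18, adjusted p = 0.219) and Obp56h with Obp56i (0.20, adjusted p = 0.158) no longer passed, so that they rest on those libraries. Without the 6 libraries above 20% multi-mapped reads, none of the called Obp56 pairs passed (r of 0.15 to 0.27), and Obp56g with Obp56h, at -0.07 in all libraries, was called with r = 0.29 (adjusted p = 0.0452).

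**Figure D5:**
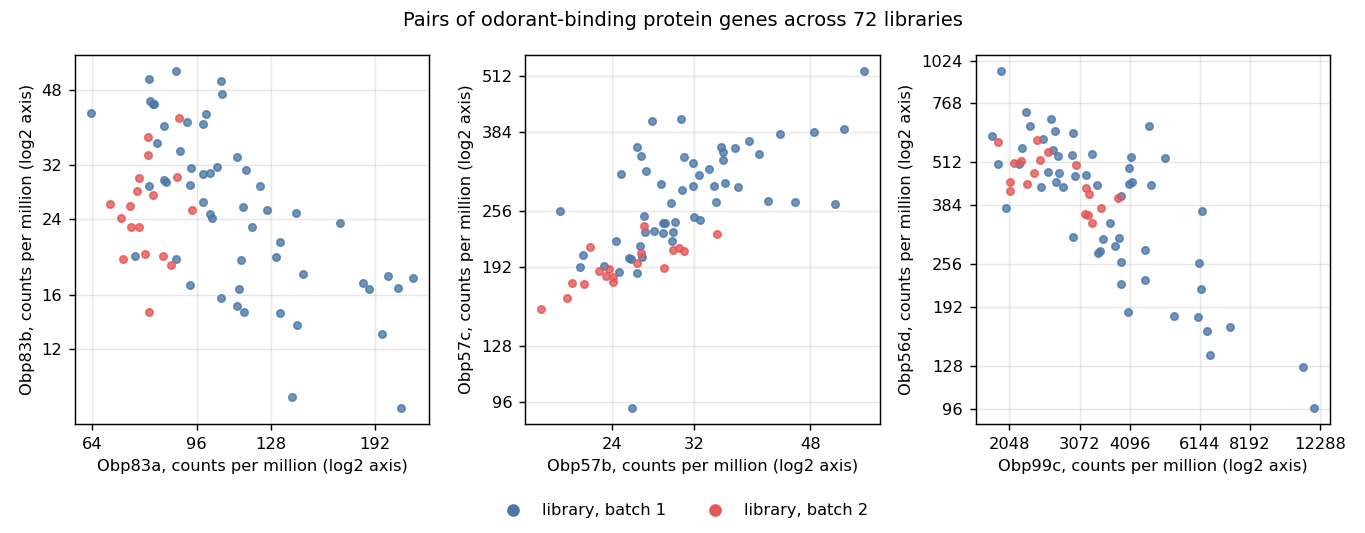
Each point is 1 of 72 libraries, with the levels of both genes in CPM on log2 axes, batch 1 in blue and batch 2 in red. Obp83b falls with rising Obp83a in batch 1 (r = -0.68) and not in batch 2, Obp57c rises with Obp57b in both, and Obp56d falls with rising Obp99c (r = -0.79).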

How the data were processed

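Poly(A) RNA of 72 pools of 10 whole males was sequenced from QuantSeq 3' FWD libraries. The raw read counts per gene are those the authors deposited, in a table whose 72 columns were identical to the single-library files. HTSeq 0.11.0, STAR 2.6, Trimmomatic 0.36, FastQC 0.11.5 and DESeq2 are listed in the submitters' processing notes. The genome build is not given in the sources used here, and positions come from Ensembl 115 (BDGP6.54) by gene identifier. Reads outside genes stayed out of library sizes (2.27% to 6.50% in no gene, 2.39% to 3.24% ambiguous, besides those aligned to several places). The authors' deposited normalized values, raw counts divided by 1 constant per column, were not used.

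Genes were filtered with filterByExpr (12470 left), scaled by TMM and fitted by edgeR 4.0.16 in R 4.3.3 with haplogroup, Y haplotype, interaction and batch (quasi-likelihood F tests, 35 residual degrees of freedom, Benjamini-Hochberg over all genes, calls at 0.05). Each haplotype was contrasted with the unweighted mean of the other 5. SEs follow from the F statistic. The procedure was run on simulated counts with changes for B11 in genes above a minimum mean count. The simulation held no batch, haplogroup or replicate effects and changed none of the lowest genes. Correlations used log2 CPM with a prior count of 2. Alternatives were RLE scaling, no filter, DESeq2 1.42.0, limma-voom (limma 3.58.1), a replicate term, other batch treatments, an additive model and left-out libraries, whose fits kept the negative binomial dispersions of all 72 libraries. Named are all members, in full those called and the 8 highest, and up to 3 genes per tissue list. Replicates came from separate crosses. Equal replicate numbers were not taken to pair libraries. The correlations of their deviations were -0.58 to 0.74 over 630 pairs of combinations, with 314 above 0.1. These pairs mix haplogroups with and without batch 2, so the check cannot exclude an effect of the replicate number. Within the N haplogroups, where the numbers coincide with batch, 125 of 153 did (median 0.23), and within the others 99 of 153 (median 0.17). The main fit has no term for the replicate number. In the 18 pairs of B38, B39 and I02 the second replicate was lower in 1 pair for Obp56e and in 3 for Obp8a and Obp56g. For Obp57a and Obp18a it was lower in 14. All libraries above 20% multi-mapped reads were first replicates. With a replicate term 26.2% of all genes were called for B38, beside 9.73% without. Between haplogroups it gave 7 members and 13.1% of all genes. The members, lists and tests were chosen with earlier results of these data known. Intervals of counts, such as limits for a count of 0 (3 counts), cover counting error only.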

Additional observations from a re-analysis of the deposited data

How the results depend on the processing

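The number of members called between Y haplotypes was 2, 4 by DESeq2, 4 without the 6 libraries above 20% multi-mapped reads and 0 in batch 1 alone. Of all genes 4.15%, 7.02%, 5.08% and 0.786% were called in the same order of settings. Leaving out single libraries gave 2 to 6, the higher counts without the second replicates of I02 with ZW139 (6) and of N23 with B04 (4). Between haplogroups the 0 calls became 1 with RLE scaling, 2 by DESeq2 and 2 without a batch term. They became 1 in the additive model and 7 with the replicate block. The share of all genes called moved too, from 2.04% to 2.09%, 5.23%, 4.82%, 4.97% and 13.1% in the same order of settings. Without single libraries there were 0 to 1 calls (1 in 19 of 72 cases). The 7 contrast calls became 3 without a batch term (Obp19b, Obp19d, Obp28a and Obp51a were lost for B38) and 1 in batch 1 alone. For B38, 7.38% of all genes were called without a batch term and 2.37% in batch 1 alone, beside 9.73% in the main fit. Without single libraries there were 3 to 10 contrast calls, lowest without the first replicates of B38 with B04, B11 or N03. With the 6 libraries left out the count stayed at 7 with other members, 1 for B38 (Obp19b), 1 for ZH23 (Obp99b) and 5 for B11, where Obp22a, Obp51a and Obp57b joined. Of all genes 0.449%, 1.95% and 3.95% were then called for B38, ZH23 and B11. The interaction had 0 calls in each setting with an interaction term, which the additive model lacks, and without each library (0 to 0). Batch calls were 11 to 16 over the settings, beside 20.2% to 37.8% of all genes, and 11 to 15 without single libraries. Of 16 neighbouring pairs, 10 were called, 1 in batch 2 alone and 9 to 11 without single libraries. The replicate block, which rests on numbers not taken to pair libraries, gave 10 contrast calls and 16 batch calls (4 of 13 ended, 7 joined), and left the 2 Y calls as they were. In no setting did a called member change direction. The cause of these changes was not tested, nor was the part of the smaller number of libraries in batch 1 alone. Depth limits the low genes most: Obp83g had a median of 6 counts per library, Obp57e 5.5.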

Other observations

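The relation of the other 32 members to Obp99c, the most abundant one, was looked at after the data had been seen. Over 72 libraries 24 of 32 were correlated with it at an adjusted p under 0.05 (Pearson on log2 CPM, permutation test of 100000 resamples, Benjamini-Hochberg over 32), 19 positively and 5 negatively, and 20 in residuals after haplogroup, Y haplotype and batch. The share of all genes correlated with Obp99c was not determined, so the count is not a trait of the family. Correlation was common among members in general, with 46.5% of the pairs that were not neighbouring at an absolute r of 0.27 or more. Positive values were led by Obp99a (r = 0.81, rho = 0.78), Obp44a (0.77, 0.73), Obp83a (0.76, 0.66), Obp99b (0.73, 0.72) and Obp57c (0.72, 0.71). Negative ones were Obp56d (r = -0.79, rho = -0.67), Obp19d (-0.61, -0.51), Obp83b (-0.56, -0.59), Obp83ef (-0.53, -0.49) and Obp56e (-0.33, -0.15). The antennal genes stood on both sides, with Obp99a and Obp83a rising and Obp56d, Obp19d and Obp83b falling with Obp99c. Without the 2 libraries farthest from the median of Obp99c 21 were called, and Obp56e was no longer among them (-0.12, adjusted p = 0.382). With scaling by library size alone 22 were called, 11 of them negative, and in batch 2 alone 10. The share of reads aligned to several places had a Spearman rho of 0.42 with Obp99c and of -0.38 with Obp56d, -0.48 with Obp19d and -0.54 with Obp56e, and its part in these relations was not tested.

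In the 2 libraries highest in Obp99c, the first replicates of N23 with Y B04 and of I02 with Y ZH23, a few other members were also at their extremes. Of the 33 members, 3 (Obp99c included) were among their highest 3 libraries in both, and 2 among their lowest 3 in both. Others differed between the 2 libraries: from the top, Obp51a ranked 2 and 41 and Obp19a 4 and 70. Obp57c had 525 and 411 CPM there, the highest and second highest of 72 libraries, with a median of 241 CPM over all. Obp56d had 96.6 and 127 CPM, the lowest and second lowest, with a median of 441 CPM, and Obp56e 6.04 and 6.72 CPM, also the lowest and second lowest, with a median of 18.6 CPM.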
